A study of Mus musculus with 33 samples.

Results

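The genes described here are 7 transcripts by which cholinergic neurons of the basal forebrain are recognised: Chat, Slc18a3, Slc5a7, Ache, Lhx8, Gbx1 and Ngfr. They were chosen by gene symbol from the 23366 genes of the count table of each sex, and all 7 were present and passed the filter on low counts, among 15158 genes tested in females and 15293 in males. Frontal cortex was collected from 33 C57BL/6 offspring of both sexes at about 1 month of age. Dams in pregnancy, and later dams with their pups, had inhaled filtered air (6 female and 6 male offspring), blu classic tobacco e-cigarette aerosols made from cartridges with 13 to 16 mg/mL nicotine (5 female and 6 male), or aerosols from cartridges without nicotine (5 female and 5 male). Only 1 pup of a litter was used, so each library stands for its own litter, and no gene was altered in any group. The question asked of these genes was whether either aerosol, inhaled before and after birth, changed their expression when compared to air exposed controls.

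Cholinergic neurons make acetylcholine from choline and acetyl coenzyme A with choline acetyltransferase (Chat), load it into vesicles with the vesicular acetylcholine transporter (Slc18a3) and recover choline through the high affinity choline transporter (Slc5a7) after acetylcholinesterase (Ache) has split the transmitter in the synapse. Those that innervate the cortex have their cell bodies in the basal forebrain, arise under the homeobox factors Lhx8 and Gbx1, and hold the p75 neurotrophin receptor (Ngfr) into adult life. The cholinergic interneurons of the striatum share most of these transcripts, while cell bodies within the cortex that contain Chat are few and of the bipolar, Vip containing type. In tissue RNA a smaller number of cells of a type and less RNA per cell cannot be told apart.

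Chat and Slc18a3 form a single locus. In the mm9 build Chat lies on the minus strand of chromosome 14 at chr14:33221389-33279095, with 16 blocks of exon sequence of 2810 bases in all, and Slc18a3, at chr14:33275623-33278036 on the same strand, lies within the first intron of Chat and shares 0 exon bases with it. Slc5a7 is at chr17:54412919-54438359, Lhx8 at chr3:153969260-153993615, Gbx1 at chr5:24008575-24033094 and Ngfr at chr11:95430132-95449049, all on the minus strand, and Ache is at chr5:137728747-137735694 on the plus strand. The long noncoding gene Gm2990 overlaps the start of Chat on the opposite strand, and whether the counting used strand is not given in the sources used here, so reads of Chat and of Gm2990 may not have been told apart. The 250 bases before the RefSeq start sites of Chat, Slc18a3, Ngfr and Ache are printed 5′ to 3′, since Chat and Slc18a3 start within the same locus and Ngfr and Ache had the largest and the smallest changes of the 7. They are from the RefSeq promoter table (GRCm38.p6), with their places in mm9 found by exact match: chr14:33279096-33279345 for Chat, chr14:33278037-33278286 for Slc18a3, chr11:95449013-95449262 for Ngfr and chr5:137729232-137729481 for Ache. Capitals mark the E-box CACGTG and the GC box GGGCGG, on either strand.
Chat: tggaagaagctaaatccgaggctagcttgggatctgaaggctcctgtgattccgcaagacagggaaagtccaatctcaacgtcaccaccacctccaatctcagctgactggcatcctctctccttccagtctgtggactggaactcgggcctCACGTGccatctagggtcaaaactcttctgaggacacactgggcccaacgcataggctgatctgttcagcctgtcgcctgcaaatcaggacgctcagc
Slc18a3: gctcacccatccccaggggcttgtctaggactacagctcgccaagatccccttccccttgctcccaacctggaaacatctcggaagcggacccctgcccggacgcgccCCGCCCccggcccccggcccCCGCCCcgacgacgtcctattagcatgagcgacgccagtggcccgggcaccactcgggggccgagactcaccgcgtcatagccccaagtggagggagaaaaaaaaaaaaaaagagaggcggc
Ngfr: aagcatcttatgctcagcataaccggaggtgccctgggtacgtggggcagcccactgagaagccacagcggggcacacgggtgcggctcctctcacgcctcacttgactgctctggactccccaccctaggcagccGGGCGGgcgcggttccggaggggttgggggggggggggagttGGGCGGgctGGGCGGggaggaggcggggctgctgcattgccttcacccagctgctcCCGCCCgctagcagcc
Ache: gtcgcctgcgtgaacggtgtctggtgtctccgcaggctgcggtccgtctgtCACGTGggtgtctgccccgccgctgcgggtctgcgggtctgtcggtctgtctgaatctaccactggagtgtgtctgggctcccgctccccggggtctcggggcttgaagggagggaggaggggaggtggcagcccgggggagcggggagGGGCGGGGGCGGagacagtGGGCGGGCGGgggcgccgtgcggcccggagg

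The start sites of Chat and Slc18a3 were 1059 bases apart. Of 4 motifs searched on both strands with overlapping matches counted, the E-box CACGTG was in the windows of Chat and Ache, against 6.02% of 32851 promoter windows of the same length. The GC box GGGCGG was in those of Slc18a3, Ngfr and Ache, against 32.7% of all windows. The homeobox core TAATTA (4.84% of windows) and the cyclic AMP element TGACGTCA (1.55%) were in 0 of the 6 member windows that could be searched, and the windows of Slc5a7 and Lhx8 held none of the 4. These matches describe letters in the windows and not sites of binding.

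Libraries held 19150562 to 27513174 counts in females and 17845672 to 24787955 in males, and members were covered by 9 counts in 1 library for Gbx1, the lowest, up to 3834 for Ache. Values are counts per 1000000 counts of a library (CPM) after scaling by the trimmed mean of M values (TMM), and libraries are named by their group and number. The sexes were prepared and sequenced as separate batches, so a difference between the sexes cannot be told apart from a difference between runs. The library labelled male nicotine 21 had 215 CPM of Xist and 0.0465 CPM of 4 Y-linked genes, whereas the other 16 male libraries had 0.0402 to 0.253 and 114 to 131 CPM, so the calls of the members and the correlations over male libraries are given with and without it. The 12 cortical glutamatergic marker genes, which define the labelled tissue, were all detected in every group.

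Per kilobase of exon sequence, which allows levels of different genes to be compared, Ache was the most abundant member in every group and Gbx1 the least abundant. In female controls the mean levels were 12.8 ± 2.12 CPM per kb for Ache (SD, n = 6), 4.51 ± 1.69 for Slc5a7, 3.28 ± 1.40 for Slc18a3, 1.77 ± 1.01 for Ngfr, 1.42 ± 0.550 for Chat, 1.40 ± 0.706 for Lhx8 and 0.174 ± 0.0632 for Gbx1. In male controls the order was the same, from 14.2 ± 2.22 CPM per kb for Ache to 0.324 ± 0.126 for Gbx1. Neighbours from Slc5a7 to Lhx8 in this order overlapped in range within the controls of each sex. Chat was above Lhx8 in only 3 of 6 female controls and 5 of 6 male controls, so these levels were not separated, while Ache above Slc5a7 and Lhx8 above Gbx1 held without overlap in both sexes. The order was altered in exposed groups only in the last places before Gbx1, where mean Lhx8 was above mean Chat in females exposed to aerosols with or without nicotine. This depended on the length used, since per kilobase of the longest transcript mean Lhx8 was above mean Chat in all 6 groups, controls included (1.71 against 1.42 in females and 2.38 against 2.22 in males).

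**Figure D1:**
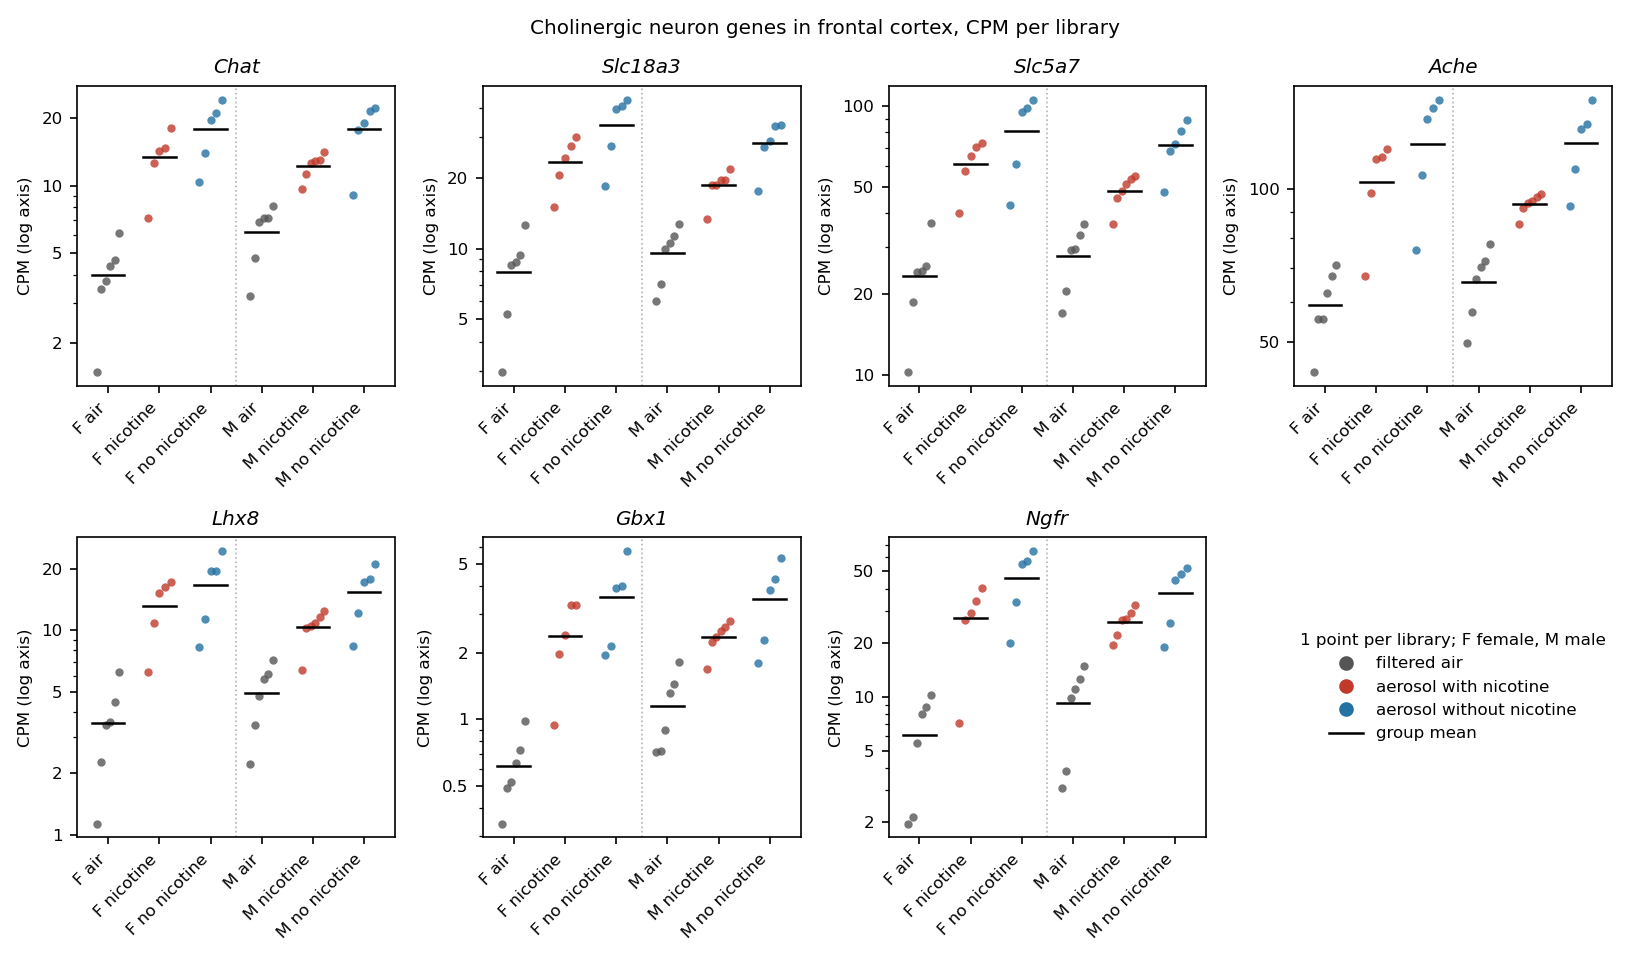
Each panel plots 1 gene, with CPM on a log axis and 1 point per library of female (F) and male (M) offspring exposed to filtered air (grey), aerosol with nicotine (red) or aerosol without nicotine (blue), and a black line at the group mean. Control means are lowest in every panel, as for Chat, at 1.48 to 6.17 CPM in female controls against 7.15 to 24.1 CPM in exposed females.

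In female offspring, all 7 genes were higher after exposure to aerosols without nicotine, and the libraries of the exposed group lay above every control library for each of the 7. Of all genes tested, 5.03% were called higher at an adjusted p below 0.01 and 4.4% had every exposed library above every control. The median log2 fold change of the 7 was 2.15, against 0.01 for all genes. Aerosols with nicotine were also followed by higher levels of all 7 in females, with a median log2 fold change of 1.73 (0.00 for all genes), and all 7 were called higher, against 1.98% of genes tested. There the groups were separated without overlap for 3 of 7 (Chat, Slc18a3 and Slc5a7), against 3.07% of genes. The calls at that threshold rested on single libraries, and 8 of the 11 fits that left out 1 library called fewer than 7. They called 6 genes without female air 2 or female nicotine 5, 5 without female air 4 or female air 5, 4 without female air 6 or female nicotine 1, 2 without female nicotine 6 and 1 (Chat) without female nicotine 2. Chat was called in all 11 fits, Ngfr in 5 and Ache in 3, and the log2 fold changes remained above 0 in each. With the replicate numbers that the female groups share added to the fit, no member was called. All 7 remained higher there, and 136 of all genes were called.

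Among male offspring, aerosols without nicotine were followed by higher levels of all 7 genes. All 7 were called higher, against 6.15% of genes tested, with a median log2 fold change of 1.56 (0.02 for all genes), and the groups did not overlap for 6 of the 7 (all but Gbx1), against 5.48% of genes. In the male nicotine group the 7 log2 fold changes ran from 0.51 to 1.52 with a median of 0.98 (0.01 for all genes), and 0 of 7 passed the threshold of 0.01, nor did any other gene (0% called by edgeR, with 2203 genes or 14.4% at an unadjusted p below 0.05). DESeq2 called 159 genes in that comparison, 6 of them members. All 7 members had an unadjusted p below 0.05 and 5 an adjusted p below 0.05, where 0.209% of genes tested were higher at that level. For 5 of the 7 (all but Lhx8 and Gbx1) each exposed male was above each control, against 0.804% of genes. Without male nicotine 21 the log2 fold changes ran from 0.50 to 1.51, with 0 members below an adjusted p of 0.05. Of the 12 fits that left out 1 library of either group, 9 had 0 members below 0.05, and those without male air 37, male air 39 and male nicotine 16 had 4, 2 and 6.

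**Figure D2:**
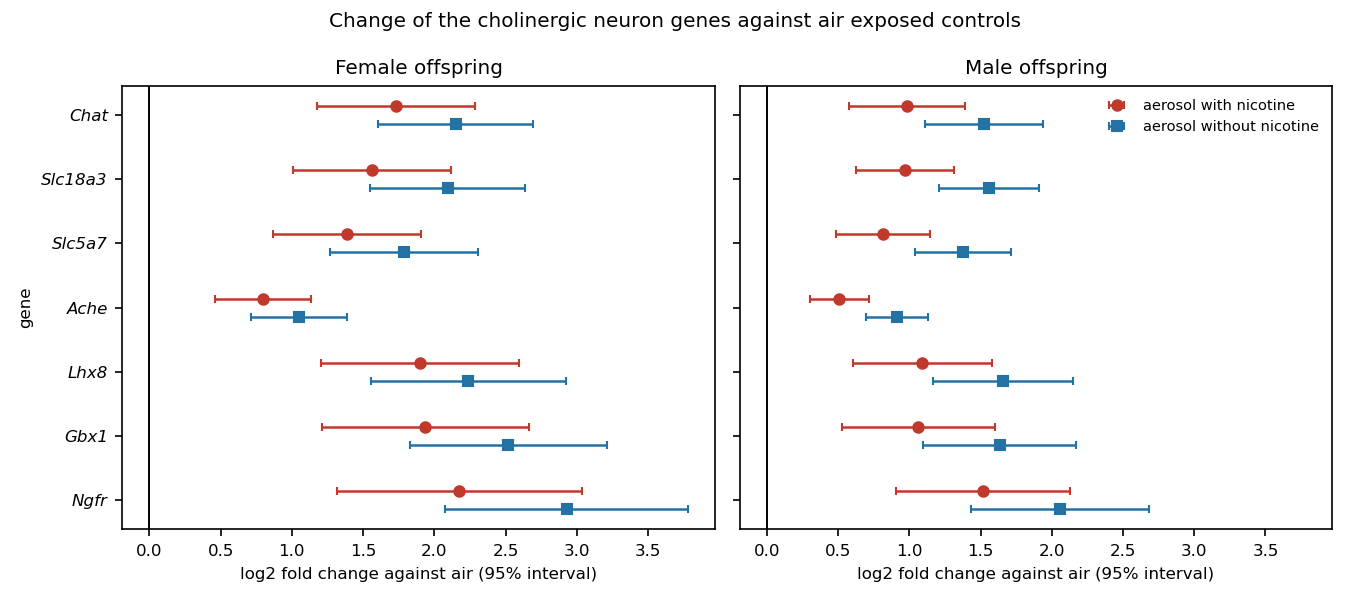
The horizontal axis gives the log2 fold change against air exposed controls with its 95% interval, from edgeR, for each of the 7 genes in female (left) and male (right) offspring, after aerosol with nicotine (red circles) or without nicotine (blue squares). All 28 points lie above 0, from 0.51 for Ache in males exposed with nicotine to 2.93 for Ngfr in females exposed without nicotine.

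The 3 genes that make, store and recover the transmitter rose in females with either aerosol and in males exposed without nicotine. Chat was at 1.48 to 6.17 CPM in female controls (median 4.08), at 14.3, 18.0, 7.15, 12.6 and 14.8 CPM in females 1, 2, 3, 5 and 6 exposed with nicotine, and at 10.4, 19.5, 24.1, 14 and 21 CPM in females 1 to 5 exposed without nicotine. Every exposed female was above every control, and female nicotine 3 was the nearest to them. The log2 fold changes were 1.73 ± 0.28 (SE, adjusted p = 0.00162, edgeR) with nicotine and 2.15 ± 0.28 (adjusted p = 0.000802) without. Male controls had 3.25 to 8.14 CPM of Chat (median 7.0), males exposed with nicotine 9.70 to 14 (median 12.7), and males exposed without nicotine 22.2, 21.4, 18.9, 17.6 and 9.05 in libraries 2, 3, 4, 5 and 7. Again no exposed library fell within the range of the controls, and male no nicotine 7 was the lowest of its group. The log2 fold change was 1.53 ± 0.21 without nicotine (adjusted p = 7.45e-05) and 0.98 ± 0.21 with nicotine (adjusted p = 0.043). By exact two-sided permutation of log2 CPM, each of the 3 comparisons of 5 with 6 libraries gave p = 0.00433 and that of 6 with 6 gave p = 0.00216, the smallest these numbers allow. Without male nicotine 21 the male nicotine comparison of Chat, then of 5 with 6, gave p = 0.00433 by the same exact permutation test. Chat and Ngfr were among the genes that the study picked from these samples for follow-up, so their direction is not independent evidence.

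Slc18a3, the vesicular transporter, was at 2.97 to 12.6 CPM in female controls (median 8.63), at 24.3, 29.9, 15.1, 20.7 and 27.4 CPM in females exposed with nicotine and at 18.5, 39.5, 43.4, 27.5 and 40.6 CPM in those exposed without. The same libraries were at the edges as for Chat, with female air 6 the lowest of all and female nicotine 3 the lowest of its group. In males it was at 5.96 to 12.7 CPM in controls (median 10.3), at 13.5 to 21.8 (median 19.2) with nicotine, and at 33.4, 33.6, 27.3, 28.9 and 17.7 without. No exposed library of either sex overlapped with its controls. Slc18a3 had log2 fold changes of 1.56 ± 0.28 and 2.09 ± 0.28 in females (adjusted p = 0.00276 and 0.000802, with and without nicotine) and 0.97 ± 0.18 and 1.56 ± 0.18 in males (adjusted p = 0.0334 and 2.14e-05).

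Slc5a7 carries choline back into the terminal. Female controls had 10.3 to 36.9 CPM (median 24.4), females exposed with nicotine 70.6, 73.0, 40.2, 57.3 and 65.3, and females exposed without nicotine 42.8, 98.2, 106, 61.0 and 95.6. Female air 3, the highest control, came close to the lowest exposed females without reaching them. In males the controls were at 17 to 36.41 CPM, the nicotine group at 36.45 to 55.0 and the group without nicotine at 80.8, 89.1, 68.2, 72.3 and 47.9, so that male air 37 and male nicotine 16 all but touched. For Slc5a7 the log2 fold changes were 1.39 ± 0.26 (adjusted p = 0.00354) and 1.79 ± 0.26 (adjusted p = 0.000841) in females and 0.81 ± 0.17 (adjusted p = 0.0416) and 1.38 ± 0.17 (adjusted p = 3.28e-05) in males, with and without nicotine.

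Ache, which ends the signal and is also made by many cells that are not cholinergic, had the smallest change of the 7 in each comparison with air. It was at 43.6 to 70.7 CPM in female controls (median 58.9), at 116, 119, 67.4, 98.2 and 115 CPM in females exposed with nicotine and at 75.9, 144, 150, 106 and 137 CPM in those exposed without. Female nicotine 3 lay within the range of the controls and the other exposed females above it, and the call of Ache with nicotine in females held in 3 of the 11 fits that left out 1 library. In male controls it was at 49.7 to 77.7 CPM, in males exposed with nicotine at 85.2 to 97.7, and in males exposed without at 131, 149, 134, 109 and 92.4, with no overlap. For Ache the log2 fold changes were 0.80 ± 0.17 (adjusted p = 0.00721) and 1.05 ± 0.17 (adjusted p = 0.000934) in females and 0.51 ± 0.11 (adjusted p = 0.0416) and 0.91 ± 0.11 (adjusted p = 2.63e-05) in males, with and without nicotine.

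Lhx8 and Gbx1 encode transcription factors of this lineage. Lhx8 was at 1.13 to 6.29 CPM in female controls (median 3.51), at 15.2, 16.3, 6.25, 10.8 and 17.2 CPM with nicotine and at 8.27, 19.5, 24.5, 11.4 and 19.6 CPM without. Female nicotine 3 was just below the highest control, female air 3, and the groups otherwise did not overlap. In males it was at 2.22 to 7.20 CPM in controls, at 6.39 to 12.4 with nicotine and at 17.2, 21.1, 17.9, 12.2 and 8.43 without, with male nicotine 16 the only exposed male within the range of the controls. Lhx8 had log2 fold changes of 1.90 ± 0.35 (adjusted p = 0.0032) and 2.24 ± 0.35 (adjusted p = 0.000841) in females and 1.09 ± 0.25 (adjusted p = 0.0615) and 1.66 ± 0.25 (adjusted p = 0.000162) in males, with and without nicotine.

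Gbx1 was the scarcest member, with 9 to 24 counts per female control library. It was at 0.340 to 0.987 CPM in female controls, at 2.40, 3.29, 0.944, 1.97 and 3.27 CPM with nicotine and at 1.96, 3.92, 5.73, 2.15 and 4.01 CPM without. Again only female nicotine 3 overlapped with the controls. Male controls were at 0.711 to 1.82 CPM, the nicotine group at 1.68 to 2.78 and the group without nicotine at 4.28, 5.34, 3.82, 2.28 and 1.8, so that male nicotine 16 and male no nicotine 7 lay below the highest control, male air 37. Gbx1 had log2 fold changes of 1.94 ± 0.37 (adjusted p = 0.00362) and 2.52 ± 0.35 (adjusted p = 0.000802) in females and 1.06 ± 0.27 (adjusted p = 0.0885) and 1.63 ± 0.27 (adjusted p = 0.000343) in males, with and without nicotine.

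Ngfr, the receptor for neurotrophins, had the largest change of the 7 in every comparison with air. It was at 1.96 to 10.2 CPM in female controls (median 6.77), at 29.1, 40.1, 7.10, 26.7 and 33.9 CPM with nicotine and at 19.9, 54.9, 64.7, 33.8 and 57.0 CPM without. Female nicotine 3 was again within the range of the controls, below 3 of the 6. In males it was at 3.11 to 14.8 CPM in controls (median 10.5), at 19.3 to 32.3 with nicotine (median 27.0) and at 48.3, 52.0, 44.8, 25.7 and 18.8 without, with no overlap in either comparison. The log2 fold changes were 2.18 ± 0.44 (adjusted p = 0.00482) and 2.93 ± 0.43 (adjusted p = 0.000841) in females and 1.52 ± 0.31 (adjusted p = 0.0416) and 2.06 ± 0.32 (adjusted p = 0.000183) in males, with and without nicotine. Only 5 of the 15158 genes tested in females had a larger log2 fold change than Ngfr with nicotine and 6 without, and 15 and 21 of the 15293 in males. Ngfr is also made by Schwann cells, whose 5 markers summed to 3.06 to 4.20 CPM in female controls, 3.19 to 4.85 with nicotine and 4.07 to 7.16 without, and to 3.29 to 5.33, 3.79 to 5.82 and 4.10 to 5.51 CPM in males. None of the 5 was at 0, and their part in the level of Ngfr was not tested.

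The 7 genes were lower with than without nicotine in both sexes, but 0 of 7 were called by edgeR in either. In females the log2 fold changes of nicotine against no nicotine ran from -0.75 for Ngfr to -0.25 for Ache, with adjusted p of 0.601 to 0.795, and no member reached an unadjusted p below 0.05, where 0% of all genes were called and 8.36% (1267 genes) were below that level. In males they ran from -0.59 for Slc18a3 to -0.40 for Ache, with adjusted p of 0.0479 for Ache to 0.323 for Ngfr, and 6 of the 7 had an unadjusted p below 0.05, where 20.1% of genes reached it and 0.248% were called. The 95% intervals were wide, from -0.94 to 0.10 for Chat in females and from -0.94 to -0.15 in males. Without male no nicotine 7, the lowest library of its group for all 7 genes, the log2 fold change of Ache was -0.49 (adjusted p = 0.00974), and it was then the only member called. Without male nicotine 21, 0 of 7 were called (-0.42 for Ache, adjusted p = 0.074). The comparisons of the exposed groups with air share their controls, so the order of their changes is not further evidence.

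Fold changes against air were larger in females than in males for each of the 7 genes with either aerosol, but none of these differences was called. For Chat the female minus male difference in log2 fold change was 0.76 ± 0.37 with nicotine (adjusted p = 0.765) and 0.63 ± 0.37 without (adjusted p = 0.945). The differences of the 7 ran from 0.14 for Ache without nicotine to 0.89 for Gbx1 without nicotine, and 0% of all genes were called in either test, with 6.47% and 4.91% of genes at an unadjusted p below 0.05 (978 and 742), where the members numbered 1 (Chat, with nicotine) and 0. The 95% interval for Chat with nicotine was 0.03 to 1.49, so the size of the difference was poorly resolved. With male nicotine 21 or any other single library left out, 0 members were called.

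The members were also set against each other within each library, in 6 ratios that were chosen after their values had been seen and 36 tests. Slc18a3, whose transcript shares a locus with Chat, had a ratio to it that differed between groups by about the spread within them. In females this ratio of CPM was 1.97 ± 0.243 in controls (SD, n = 6), 1.8 ± 0.198 with nicotine (n = 5) and 1.90 ± 0.107 without (n = 5). In males it was 1.57 ± 0.150, 1.53 ± 0.130 and 1.62 ± 0.200, and adjusted p ran from 0.568 to 0.799 by exact permutation over the comparisons of both sexes. Ache did not keep step with Chat. The ratio of Ache to Chat was 16.7 ± 6.41 in female controls, 7.95 ± 0.996 with nicotine and 7.0 ± 0.608 without, and no exposed female overlapped with a control (exact permutation p = 0.00433 and adjusted p = 0.039 for each). The highest ratio, 29.4, was that of female air 6, and with any 1 library left out the log2 difference stayed between -1.10 and -0.83 with nicotine and between -1.28 and -1.01 without. In males it was 11.1 ± 2.31, 7.71 ± 0.846 and 7.28 ± 1.72, with an adjusted p = 0.039 with nicotine and 0.0693 without by exact permutation, and the log2 difference with nicotine stayed between -0.55 and -0.41 with any 1 library left out, male nicotine 21 included. For Slc5a7 the ratio to Chat fell from 5.97 ± 0.726 in female controls to 4.50 ± 0.342 without nicotine (exact permutation, adjusted p = 0.039). The other 32 tests had an adjusted p above 0.05, including every one of Lhx8 and Ngfr to Chat and of Gbx1 to Lhx8.

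**Figure D3:**
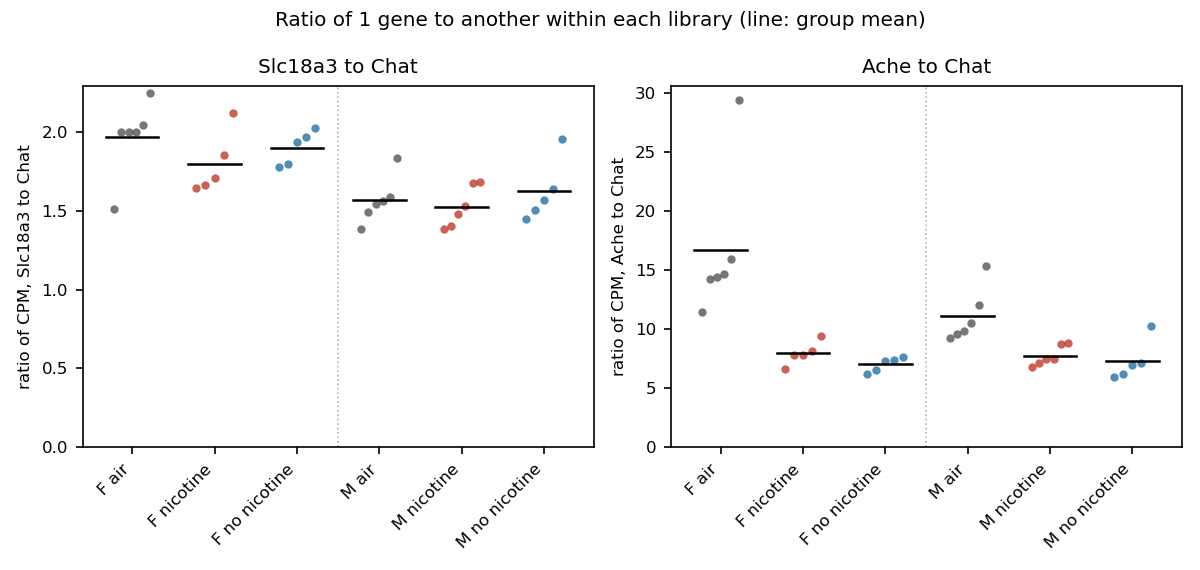
The vertical axes give the ratio of CPM of Slc18a3 to Chat (left) and of Ache to Chat (right) in each library, by group (F female, M male), with a line at the group mean. Slc18a3 to Chat stays between 1.38 and 2.25 in all groups, whereas Ache to Chat lies between 9.22 and 29.4 in controls and between 5.91 and 10.2 in exposed offspring.

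Within groups the 7 genes varied together. The same library was the lowest of its group for all 7 genes in 5 of the 6 groups (female nicotine 3, female no nicotine 1, male air 31, male nicotine 16 and male no nicotine 7), and female air 6 was the lowest for 5 of the 7. Female air 3 and female no nicotine 3 were the highest of their groups for all 7. With group means subtracted, the Pearson correlation of log2 CPM over the 21 pairs of members was 0.677 to 0.977 in females (median 0.880, 16 libraries) and 0.825 to 0.989 in males (median 0.898, 17 libraries). Without male nicotine 21 the male range was 0.827 to 0.992 (median 0.903, 16 libraries). These are descriptions over libraries that share a sequencing run, group and depth range.

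Among 13713 other genes with a mean of at least 1 CPM in both tables, the 5 whose deviations within groups were most like the mean log2 CPM of Chat, Slc18a3 and Slc5a7 included Slc10a4, Ecel1, Slc32a1 and Tacr3. Slc10a4, a protein of cholinergic and monoaminergic vesicles, had r = 0.909 in females and 0.931 in males, and Ecel1, a membrane peptidase of neurons, 0.945 and 0.880. Slc32a1, the vesicular transporter of GABA, which cholinergic neurons are not defined by, had 0.964 and 0.874, and Tacr3, the neurokinin 3 receptor, 0.942 and 0.861. Without male nicotine 21 these 4 had male r of 0.932, 0.880, 0.874 and 0.869. Slc32a1 was at 192 ± 34.7 CPM in female controls (SD, n = 6), 291 ± 31.5 with nicotine (n = 5) and 321 ± 52.7 without (n = 5), and at 206 ± 28, 272 ± 20 and 337 ± 59.5 CPM in males.

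Of 12 partner genes of cholinergic neurons, listed with earlier results of these data known, 8 were called higher and 1 lower in females exposed without nicotine, 8 higher and 1 lower in males exposed without nicotine, 5 higher and 1 lower in females exposed with nicotine and 0 in males exposed with nicotine. Of all genes tested, 5.03% were called higher and 7.03% lower in the first of these comparisons, 6.15% and 7.47% in the second, 1.98% and 2.32% in the third and 0% in the fourth. The 4 lineage factors, Nkx2-1, Isl1, Lhx6 and Gbx2, had median log2 fold changes of 1.28 in females and 1.08 in males without nicotine, with all 4 called higher in each sex. Nkx2-1, which specifies the medial ganglionic eminence, rose from 1.39 ± 0.813 CPM in female controls (SD, n = 6) to 6.27 ± 3.01 without nicotine (n = 5), a log2 fold change of 2.16 ± 0.40 (SE, adjusted p = 0.0015, edgeR), and had 1.66 ± 0.25 in males (adjusted p = 0.000132). Isl1 and Gbx2 were called higher with nicotine in females as well, with log2 fold changes of 1.11 (adjusted p = 0.00995) and 1.35 (adjusted p = 0.00845), whereas Nkx2-1 (1.74, adjusted p = 0.0109) and Lhx6 (0.66, adjusted p = 0.02) missed the threshold.

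Sort1 was the only partner called lower. This gene encodes sortilin, which pairs with Ngfr as a receptor for pro-neurotrophins and is broadly expressed, and it went from 745 ± 68.8 CPM in female controls to 585 ± 42.5 with nicotine and 524 ± 62.4 without, with log2 fold changes of -0.35 (adjusted p = 0.00917) and -0.51 (adjusted p = 0.000841), and had -0.42 in males without nicotine (adjusted p = 9.67e-05).

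Of 7 genes of acetylcholine and choline handling, Slc10a4, Prima1, Slc44a1 and Acly were called higher in both sexes without nicotine, and Slc10a4, Prima1 and Slc44a1 in females with nicotine. Slc10a4 had the largest log2 fold changes, 1.5 ± 0.24 (adjusted p = 0.0016) and 1.75 ± 0.24 (adjusted p = 0.000802) in females and 1.41 ± 0.18 in males without nicotine (adjusted p = 3.17e-05). Prima1, which anchors acetylcholinesterase in neuronal membranes, had 1.00 ± 0.17 and 0.98 ± 0.17 in females and 1.06 ± 0.15 in males without nicotine. Slc44a1, a choline transporter of many cell types, and Acly, which makes acetyl coenzyme A in all cells, had smaller values of 0.32 to 0.49 without nicotine. Chka (choline kinase), Bche (butyrylcholinesterase) and Colq (the collagen tail of acetylcholinesterase at muscle endplates) were not called in any comparison with air. Mean Colq was lower in each exposed group, at 1.84 CPM in female controls, 1.48 with nicotine and 1.00 without. In males it was at 1.56, 1.18 and 1.24 CPM.

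**Figure D4:**
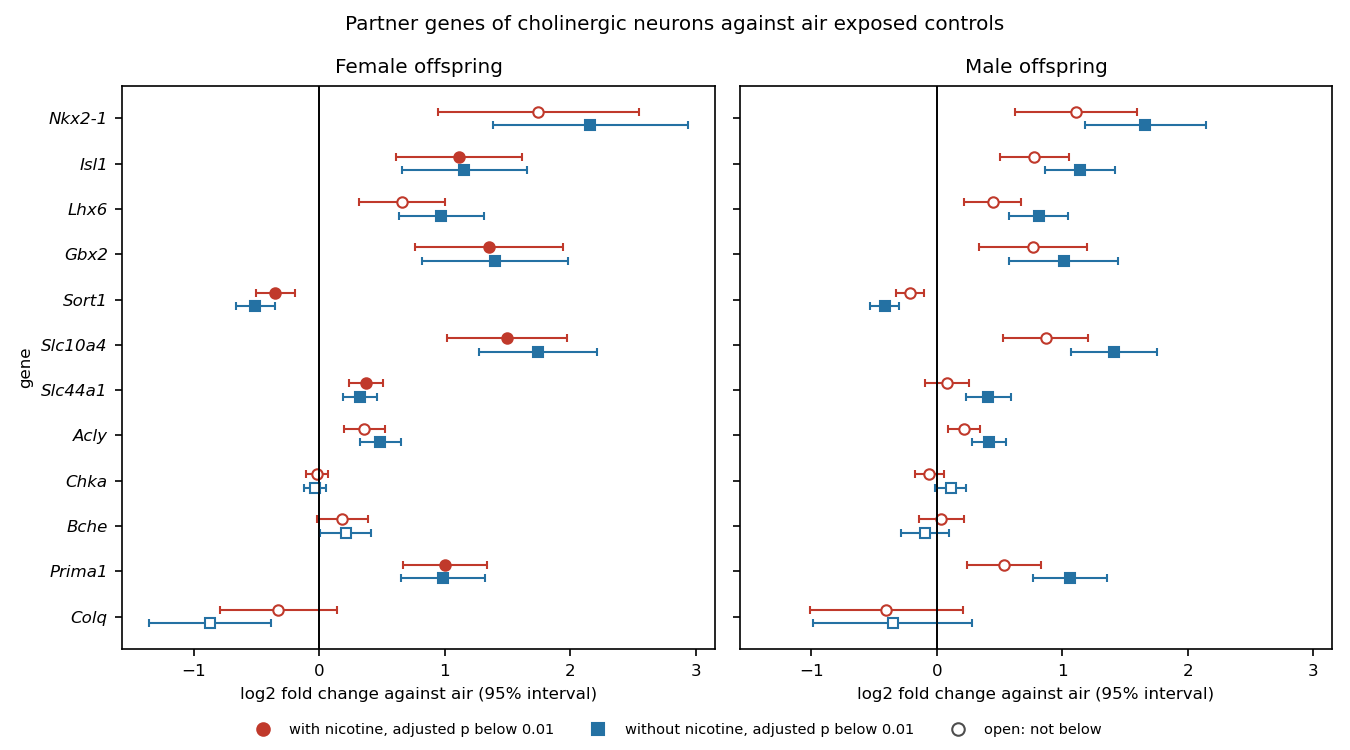
The horizontal axis gives the log2 fold change against air exposed controls with its 95% interval for 12 partner genes in female (left) and male (right) offspring, after aerosol with nicotine (red circles) or without (blue squares), with filled symbols where the adjusted p was below 0.01. Nkx2-1 and Slc10a4 have the largest values, up to 2.16 for Nkx2-1, Sort1 lies below 0 in all 4 comparisons, and Chka and Bche stay near 0.

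Markers of other cell types moved along with the members, and their part in these results was not tested. The 12 cortical glutamatergic markers summed to 3425 to 4385 CPM in female controls, 2261 to 3082 with nicotine and 1388 to 3178 without, with 3 and 11 of the 12 called lower, against 2.32% and 7.03% of all genes. In males they summed to 3218 to 3829, 2274 to 3167 and 1185 to 2315 CPM, with 0 and 11 of 12 called lower, against 0% and 7.47%. Tbr1 of this list was itself picked by the study from these samples. The libraries with the lowest member levels in the 4 exposed groups, female nicotine 3, female no nicotine 1, male nicotine 16 and male no nicotine 7, were those with the highest cortical sum of their groups, at 3082, 3178, 3167 and 2315 CPM. In controls this did not hold. Female air 6, at 4329 CPM, was below female air 2 at 4385, and male air 31, at 3731, was below male air 38 at 3829. Within groups, the mean log2 CPM of Chat, Slc18a3 and Slc5a7 had r = -0.72 with the log2 of this sum in 16 female libraries and -0.66 in 17 male libraries (-0.67 without male nicotine 21).

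**Figure D5:**
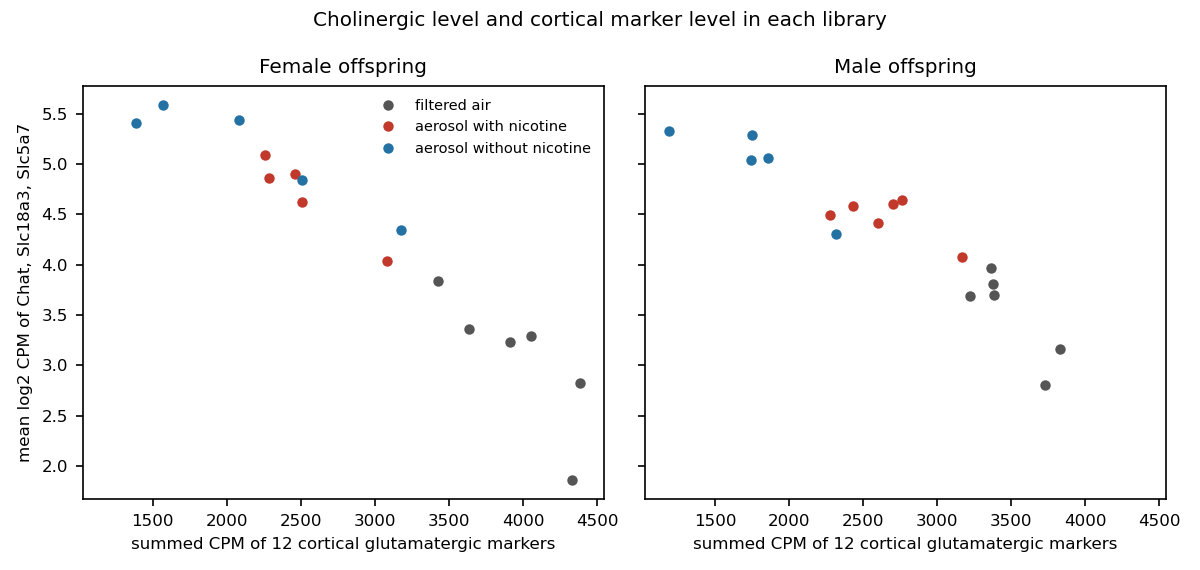
Each point is 1 library of female (left) or male (right) offspring, with the summed CPM of 12 cortical glutamatergic marker genes on the horizontal axis and the mean log2 CPM of Chat, Slc18a3 and Slc5a7 on the vertical axis, coloured by group. Controls lie at the lower right, at 3218 CPM or more of the cortical markers, and offspring exposed without nicotine mostly at the upper left, down to 1185 CPM.

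Genes of the septum and ventral forebrain (Zic1, Zic4, Trh, Dlk1 and Baiap3) summed to 38.3 to 95.8 CPM in female controls, 64.4 to 168 with nicotine and 88.2 to 282 without, and to 53.2 to 110, 84.7 to 160 and 106 to 261 CPM in males. In the groups without nicotine 4 of the 5 were called higher in females and 3 in males, against 5.03% and 6.15% of all genes. The 12 striatal projection neuron markers were higher by log2 fold change in all 4 comparisons with air, with 3, 1, 0 and 3 called in females with and without and males with and without nicotine, against 1.98%, 5.03%, 0% and 6.15% of all genes. Their sum was 1361 to 3203 CPM in female controls, 2874 to 3967 with nicotine and 2513 to 3098 without, and 1801 to 3128, 2016 to 3997 and 2138 to 5893 CPM in males. Myelin genes were called higher for 6 of 6 in both female comparisons and in males without nicotine, against the same shares of all genes. In males with nicotine, where 0% of all genes were called, the 6 had a median log2 fold change of 0.19. Their sums ran from 7894 to 9477 CPM in female controls and from 10610 to 16553 CPM in exposed females, and from 9068 to 11087 and from 9323 to 22672 CPM in males.

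Markers of other cells that can hold Chat, and of neighbouring tissue, were also summed. The 5 markers of motor and cranial nerve neurons summed to at most 1.03 CPM in any library, with Mnx1 at 0 in all 6 groups. Those of the medial habenula summed to 5.53 to 14.1 CPM over all libraries, with 0 of 4 tested called. The 5 markers of cortical bipolar interneurons summed to 290 to 419 CPM in female controls, 131 to 331 with nicotine and 180 to 245 without, and to 266 to 327, 191 to 279 and 162 to 287 CPM in males. In controls most of this sum was Cck, with a median of 304 CPM in females (377 for the sum) and 210 in males (285). Median Cck was 156 CPM with nicotine and 95.1 without in females, and 156 and 107 in males. Median Calb2 rose instead, from 24.8 CPM in female controls to 45.1 with nicotine and 57.7 without. In males it was 32.3, 42.0 and 58.0 CPM. The sum thus does not describe the 5 genes as a set. Of these 5, Vip and Cck were called lower in both sexes without nicotine, and Vip also in females with nicotine. Calb2 was called higher in females without nicotine. Choroid plexus markers were above 100 CPM in 4 libraries, at 324 CPM in female air 3, 110 in female air 6, 283 in female no nicotine 3 and 942 in male no nicotine 7. In males without nicotine 3 of the 6 were called higher, against 6.15% of all genes. Leaving out female air 3, female air 6, female no nicotine 3 or male no nicotine 7 left all 7 members called in the comparisons of aerosol without nicotine with air.

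Markers of the thalamus and of the preoptic area and hypothalamus were also higher in exposed offspring by the medians of their sums, and their part in the results was not tested. The 5 thalamic markers summed to 75.7 to 105 CPM in female controls (median 89.4), 70.4 to 117 with nicotine (median 115) and 100 to 147 without (median 131), and to 79.2 to 97.4, 74.8 to 116 and 92.0 to 131 CPM in males (medians 83.4, 114 and 118). The 7 preoptic and hypothalamic markers summed to 2.45 to 10.2 CPM in female controls (median 3.18), 4.16 to 13.5 with nicotine (median 9.79) and 8.03 to 19 without (median 8.73). In males they summed to 2.98 to 7.24 CPM in controls, 4.56 to 20.5 with nicotine and 8.25 to 20.7 without (medians 4.36, 7.98 and 8.86), with no overlap between controls and males exposed without nicotine. At most 1 gene of each list was called in any comparison with air. Of all genes, 4.29% and 12.1% were called in either direction in females with and without nicotine, and 0% and 13.6% in males. Astrocyte markers were at 2017 to 2760 CPM over all libraries, with group medians of 2352 to 2532 CPM and 0 of 4 called.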

How the data were processed

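RNA libraries of frontal cortex were read as single reads. Per the study's methods and the labels, the authors mapped reads to the mm9 mouse transcriptome with Bowtie, removed PCR duplicates with SAMtools and made the deposited tables of raw counts per gene with HTSeq, 1 table for each sex. The deposited counts were used as they were. A second pair of tables, normalized by the authors, was not used, and 1 of the 34 count columns matched no sample's label and was not used, which left 33. Groups came from the labels.

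Genes with a summed CPM of at least 5 over the libraries of a sex were tested with edgeR 4.0.16 (R 4.3.3), by the quasi-likelihood test after TMM scaling, with the 3 groups of a sex in 1 fit. P-values were adjusted over all genes tested by Benjamini-Hochberg, and a gene was called at an adjusted p below 0.01, the threshold of the study. The difference between the sexes was tested as an interaction over all 6 groups. Intervals are log2 fold change ± 1.96 SE. P-values measure only the spread between these libraries. Exact two-sided permutation tests used log2 CPM with a prior count of 1 (scipy 1.17.1). The scripts were tested on simulated counts with known changes.

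Levels per kilobase used the union of annotated exons (GENCODE vM1, on mm9). Slc18a3 is not named in that annotation, so its RefSeq start, found by exact match in mm9, was used. Of the members, 6 of 7 had a promoter in the RefSeq table. The 7 members, the 12 partners, the 12 marker lists and the tests were chosen with earlier results of these data known, and the ratios between members after their values were seen. Genes named are the members, the partners, and the 5 other genes with the highest smaller correlation of both sexes with the mean log2 CPM of Chat, Slc18a3 and Slc5a7; some genes that these rules name are not reported here. Alternatives were DESeq2 1.42.0, RLE or upper quartile scaling, no filter or a filter of 1 CPM in 5 libraries, fits of 2 groups, a replicate block in females, and leaving out each library.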

Additional observations from a re-analysis of the deposited data

Results flagged for a closer look

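In 42 combinations of a member and a group, 1 library stood apart from the rest of its group. Lhx8 was at 6.39 CPM in male nicotine 16, the lowest of 6 libraries, and the gap to the next was 0.648 of the range of the group. Chance alone flags about 1 in 20 groups. The same library was the lowest of its group for all 7 genes and had the highest sum of cortical glutamatergic markers of its group, 3167 CPM. No difference between the sexes in the change of a member passed its test.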

How the results depend on the processing

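All log2 fold changes of the 7 genes kept their direction under every alternative run. With aerosols without nicotine all 7 were called against air in both sexes under each alternative. In females exposed with nicotine, leaving out 1 library gave 1 to 7 members called. Whether the replicate numbers that the female groups share pair the libraries was not settled by their correlations. Of 14 same-numbered pairs, 4 had a correlation over 0.1. The median was 0.0144, against -0.00398 for other pairs, and 7 of 16 libraries correlated best with a library of their own number. With the replicate block 0 of 7 were called against air with nicotine (adjusted p 0.0136 to 0.0373, edgeR) while 7 were without nicotine. In males exposed with nicotine, 0 members were called by edgeR and 6 by DESeq2. With nicotine against without in males, leaving out 1 library gave 0 to 1 called. The other alternatives left the counts of members called within 1.5 times of the value reported.

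Over all genes, the 651 genes called in females with nicotine against air became 1319 with DESeq2, 136 with the replicate block and as few as 226 without female nicotine 2. Without nicotine the 1829 genes of females became 736 with the replicate block and 823 without female no nicotine 2. In males with nicotine, DESeq2 called 159 genes and the fit of 2 groups 17, against 0. The 38 genes of nicotine against no nicotine in males became 456 with DESeq2 and 0 in the fit of 2 groups. Upper quartile scaling split the female nicotine calls into 372 higher and 242 lower, against 300 and 351 with TMM. With the longest transcript in place of all exons, Ache was at 16.0 CPM per kb in female controls and 17.8 in male controls, and Lhx8 was above Chat in all 6 groups. Depth limited Gbx1 most, with 9 to 24 counts per female control library. The cause of these changes was not tested.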
